A study of Rattus norvegicus with 14 samples.

Results

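Astrocyte gene expression was examined through 7 transcripts in the supraoptic nucleus (SON) of the rat hypothalamus, where magnocellular neurons make vasopressin and oxytocin. The members were the rows of 7 Ensembl IDs fixed by name: Gfap, Vim, Aqp4, Slc1a2, Slc1a3, S100b and Glul. All 7 were present among the 32623 genes of the deposited table. The names come from this list of IDs, since the table itself carries no symbols.

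The libraries came from male Sprague Dawley rats of 250 to 300 g with normal water balance. An adeno-associated virus carrying a control microRNA (miCtl, 7 libraries) or a microRNA against Rasd1 (miRasd1, 7 libraries) had been injected into the nucleus, Rasd1 being the gene of a Ras-related GTPase. Tissue was taken with a 1 mm punch from frozen sections of 100 µm, so each library holds neurons and glia of the nucleus together with what lies next to it. Both groups received virus and surgery, and the comparison holds no uninjected nucleus. The sources used here do not give the virus's promoter or serotype, the interval after injection or the rats' age. Libraries of both groups are numbered 1, 2, 3, 4, 8, 11 and 12, and a miCtl and a miRasd1 library of one number are treated as a pair below. The labels do not say whether a pair is one rat, or whether the libraries of a group come from separate rats, and p-values speak only for the spread among the punches at hand.

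Astrocytes fill the space around neurons, clear glutamate and potassium, and regulate water at the blood vessels. In the SON their processes cover magnocellular neurons and are known to withdraw during dehydration and lactation, which changes how glutamate is cleared and how neurons contact each other. After injury or infection astrocytes become reactive, a state in which the intermediate filament proteins GFAP and vimentin classically increase. Gfap and Vim are therefore set beside the other 5 members, which stand for water transport (Aqp4), glutamate uptake (Slc1a2, Slc1a3), calcium binding (S100b) and conversion of glutamate to glutamine (Glul).

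The differences in Gfap and Vim varied together over the 7 pairs by Pearson's r, but Spearman's rho did not pass once adjusted. The difference in Glul lay on the other side of 0 from those in Gfap and Vim. Those in Slc1a2, Slc1a3 and S100b lay there too by sign, but the intervals of their log2 fold changes included 0. No member passed the test between groups. The start regions of Gfap, Vim and Glul, the members with the largest differences, are shown for reference. Each is the RefSeq window of 300 bases (GRCr8) from 250 before to 50 after an annotated transcript start, 5′ to 3′ on the gene's strand. Windows exist for all 7 members. Gfap and Vim have 1 window each, Glul has 2, and the downstream of these is printed. Capitals mark matches, on either strand, to the TATA motif TATAAA or to CCAAT. Gfap lies at chr10:88361612-88361911 on the minus strand, Vim at chr17:81577011-81577310 on the plus strand, and this Glul window at chr13:68575816-68576115 on the plus strand.
Gfap: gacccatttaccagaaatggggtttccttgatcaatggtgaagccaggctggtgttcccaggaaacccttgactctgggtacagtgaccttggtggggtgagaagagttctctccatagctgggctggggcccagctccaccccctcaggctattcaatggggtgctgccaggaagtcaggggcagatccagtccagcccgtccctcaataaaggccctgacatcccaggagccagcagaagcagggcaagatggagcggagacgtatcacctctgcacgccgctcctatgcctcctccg
Vim: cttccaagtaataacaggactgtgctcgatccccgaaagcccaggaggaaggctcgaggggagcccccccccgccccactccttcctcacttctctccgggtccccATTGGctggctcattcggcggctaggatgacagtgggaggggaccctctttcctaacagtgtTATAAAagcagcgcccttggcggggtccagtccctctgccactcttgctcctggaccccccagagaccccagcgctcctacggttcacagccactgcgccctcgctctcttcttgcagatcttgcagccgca
Glul: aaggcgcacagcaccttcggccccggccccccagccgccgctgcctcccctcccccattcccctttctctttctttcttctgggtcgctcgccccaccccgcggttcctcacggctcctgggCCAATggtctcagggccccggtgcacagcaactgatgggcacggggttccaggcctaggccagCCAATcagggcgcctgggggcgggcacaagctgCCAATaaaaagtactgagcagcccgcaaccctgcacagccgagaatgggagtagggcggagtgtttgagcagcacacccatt

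The Vim window held TATAAA, starting 82 bases before the annotated start, and CCAAT on the opposite strand, 144 bases before it. The Glul window held CCAAT 3 times, at 128, 65 and 32 bases before the start. The Gfap window held neither. None of the 3 windows held TTCNNNGAA, the palindrome recognised by STAT factors, or TGANTCA, the AP-1 motif. No matches overlapped. Of all 33469 RefSeq windows of this length, 14.2% held TATAAA, 37.5% CCAAT, 8.87% TTCNNNGAA and 7.33% TGANTCA, and the matches are given as a description of the sequence alone.

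Each library held 19968058 to 28345441 reads, the deepest being miRasd1 11. The 7 members had 3384 to 84447 reads each in every library, and together took 0.883% to 1.03% of the reads in miCtl and 0.909% to 1.02% in miRasd1. Counting error was therefore 0.344% to 1.72% of a value, well below the spread between libraries. Values below are normalised reads, that is read counts divided by one size factor per library. They are not corrected for transcript length, so levels are compared between libraries and not between genes. Rasd1, Avp, Oxt and markers of other cell types were not checked here, because no table used here pairs symbols with the IDs of the file, so neither the knockdown nor the tissue label was tested.

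None of the 7 astrocyte genes passed the test between miRasd1 and miCtl at an adjusted p under 0.05. The levels in miRasd1 were 1.10-fold those of miCtl for Gfap, 1.14-fold for Vim and 0.907-fold for Glul, each in most but not all pairs. For Aqp4, Slc1a2, Slc1a3 and S100b the fold lay between 0.943 and 1.05. In the test across all genes (limma, Benjamini-Hochberg adjustment), 0.145% of 15178 genes passed, 22 in all, and 0 of the 7 members. With the pair number as a block 0.988% of genes passed, and again 0 members. At an unadjusted p under 0.05 there were 2 members, Vim and Glul, against 9.88% of all genes, and with the block the same 2 members against 14.9%. edgeR called 0 members and 0.119% of all genes, and with the block 0 and 0.916%. DESeq2 called 0 members and 1.12% of all genes, and with the block 0 and 2.25%. At such shares a count of 0 among 7 is near the background. In 0 members did the 14 libraries separate into groups without overlap, against 0.349% of all genes. The median log2 fold change was −0.03 over the 7 members and −0.0012 over all tested genes, and the median absolute log2 fold change 0.09 and 0.06. In bulk tissue, changes in astrocyte number, in RNA per astrocyte and in the other cells of the punch cannot be told apart.

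**Figure D1:**
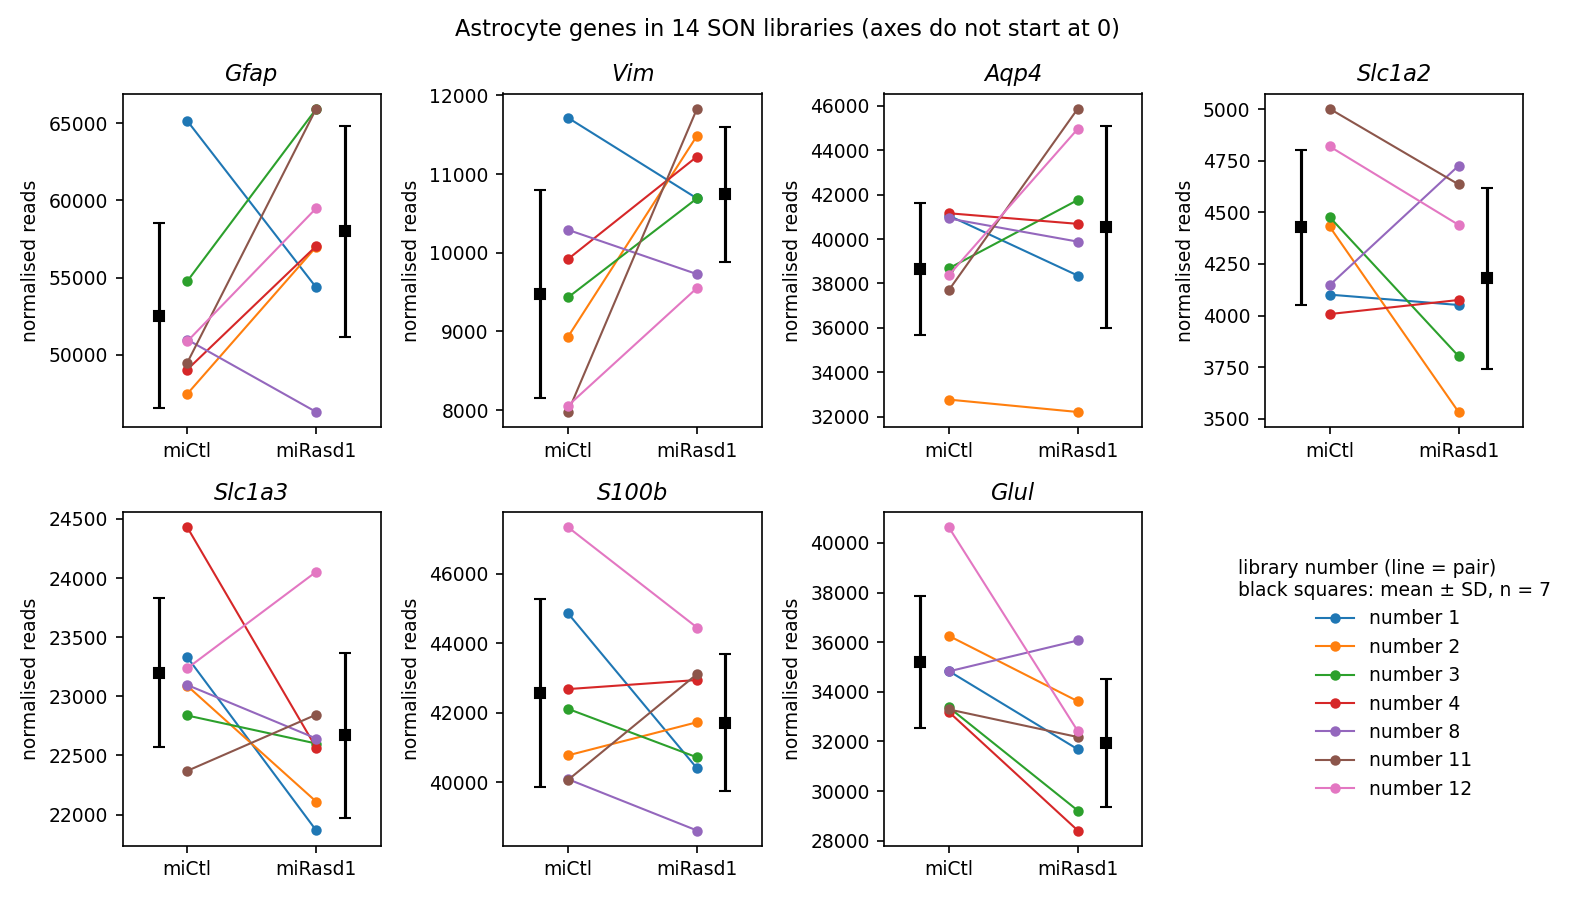
Normalised reads (axes not starting at 0) of each astrocyte gene in the 7 miCtl and 7 miRasd1 libraries. Each line joins the libraries of one number and black squares give mean ± SD (n = 7). Ranges of the groups overlap in all 7 panels, and the lines of Gfap and Vim go down in pairs 1 and 8 and up in the other 5.

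Gfap (ENSRNOG00000002919), the main intermediate filament of astrocytes, ranged from 47475 to 65154 normalised reads in miCtl, with a median of 50875. In miRasd1 it ranged from 46311 to 65937, with a median of 57051. The groups overlapped over nearly their whole range: miCtl 1 stood high, at 65154, and miRasd1 8 was the lowest of all 14 libraries. The means were 52545 ± 6005 and 58012 ± 6828 (SD, n = 7 each). The log2 fold change was 0.14 (SE 0.08, 95% interval −0.03 to 0.31, limma adjusted p = 0.590). The miRasd1 library was higher in 5 of 7 pairs, by 16.3% to 33.2%, and lower in pairs 1 and 8, by 16.6% and 9.19%. An exact permutation test of 7 against 7 libraries gave p = 0.136, and an exact sign-flip permutation test over the pairs p = 0.156 (both two-sided and unadjusted).

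Vim (ENSRNOG00000018087) encodes vimentin, the filament protein of immature and reactive astrocytes, which endothelial, ependymal and other cells make too. It measured 7975 to 11716 normalised reads in miCtl (median 9431) and 9552 to 11832 in miRasd1 (median 10691). All 7 miRasd1 libraries lay above the miCtl median, and 4 miCtl libraries lay below the lowest miRasd1 library, but miCtl 1, at 11716, exceeded all but 1 miRasd1 library. The means were 9474 ± 1320 and 10743 ± 859 (SD, n = 7 each), with a log2 fold change of 0.19 (SE 0.08, 95% interval 0.03 to 0.35, limma adjusted p = 0.397, 0.219 with the block). This was the largest difference among the 7 members, and 87.0% of tested genes had a smaller one. The miRasd1 library was higher in the same 5 pairs as for Gfap, by 13.1% to 48.4%, and lower in pairs 1 and 8 (exact permutation p = 0.0536, exact sign-flip permutation p = 0.0938, unadjusted). Vim is also made outside astrocytes, and the part of other cells in its level was not tested.

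Aqp4 (ENSRNOG00000016043), the water channel of astrocyte endfeet, had 32764 to 41164 normalised reads in miCtl (median 38677) and 32203 to 45879 in miRasd1 (median 40686). Both libraries numbered 2 were the lowest of their group, and miRasd1 11 and 12 were the highest of all. The log2 fold change was 0.06 (SE 0.07, 95% interval −0.09 to 0.21, limma adjusted p = 0.848). The miRasd1 library was higher in 3 pairs and lower in 4. Leaving out 1 library moved this value over 0.02 (without miCtl 2) to 0.12 (without miRasd1 2).

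Slc1a2 (ENSRNOG00000005479) encodes GLT-1, the glutamate transporter that carries most uptake in the forebrain. It had 4007 to 5002 normalised reads in miCtl (median 4432) and 3533 to 4726 in miRasd1 (median 4076), so that 2 miRasd1 libraries lay below and 2 miCtl libraries above the range of the other group. The log2 fold change was −0.09 (SE 0.07, 95% interval −0.22 to 0.05, limma adjusted p = 0.729), with miRasd1 lower in 5 of 7 pairs. The largest gap was in pair 2, where miRasd1 was 20.3% lower, whereas in pair 8 it was higher, by 0.19 on the log2 scale.

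Slc1a3 (ENSRNOG00000016163) encodes GLAST, the other astrocyte glutamate transporter, and was the steadiest member. It stayed between 22369 and 24430 normalised reads in miCtl (median 23096) and between 21865 and 24053 in miRasd1 (median 22600). Its SD within groups was 0.04 on the log2 scale, against a median of 0.13 over all tested genes, and 0.712% of tested genes had a smaller one. With the block its residual SD was 0.04, against a median of 0.11, and 5.77% had a smaller one. These shares are over genes of all levels, not over genes of like reads. The log2 fold change was −0.03 (SE 0.03, 95% interval −0.10 to 0.03, limma adjusted p = 0.803), and the interval in fold terms, 0.932 to 1.02, is the narrowest among the members. No pair differed by more than 7.64%.

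S100b (ENSRNOG00000001295), a calcium-binding protein of astrocytes and of some oligodendrocyte lineage cells, had 40068 to 47343 normalised reads in miCtl (median 42116) and 38615 to 44455 in miRasd1 (median 41730). The groups overlapped widely, and the log2 fold change of −0.03 (SE 0.05, 95% interval −0.13 to 0.07, limma adjusted p = 0.915) was the smallest of the 7. It was higher in 3 pairs and lower in 4.

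Glul (ENSRNOG00000049560) encodes glutamine synthetase, which turns the glutamate that astrocytes take up into glutamine. It ranged from 33193 to 40637 normalised reads in miCtl (median 34823) and from 28410 to 36070 in miRasd1 (median 32177). Of the miRasd1 libraries, 5 lay below the lowest miCtl library, while miRasd1 8 lay among the higher miCtl libraries. The means were 35203 ± 2644 and 31941 ± 2586 (SD, n = 7 each), and the log2 fold change was −0.14 (SE 0.06, 95% interval −0.26 to −0.02, limma adjusted p = 0.396, 0.152 with the block). The miRasd1 library was lower in 6 of 7 pairs, by 3.35% to 20.2%, and 3.58% higher in pair 8 (exact permutation p = 0.0332, exact sign-flip permutation p = 0.0469, unadjusted and 1 of 7 members so tested). A direction shared by at least 6 of 7 pairs was seen in 21.9% of all tested genes and in 1 of the 7 members, and one shared by all 7 pairs in 4.52% and in 0 members. Without pair 8 and with the block, Glul passed, at a log2 fold change of −0.17 (limma adjusted p = 0.0402), where 3.19% of all genes passed. Pair 8 was the only pair with Glul higher, so leaving it out had to move the mean difference further from 0. In the same fit without pair 12 instead, Glul was at −0.11 (limma adjusted p = 0.356). Its adjusted p was 0.0564 to 0.643 over the other alternatives.

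**Figure D2:**
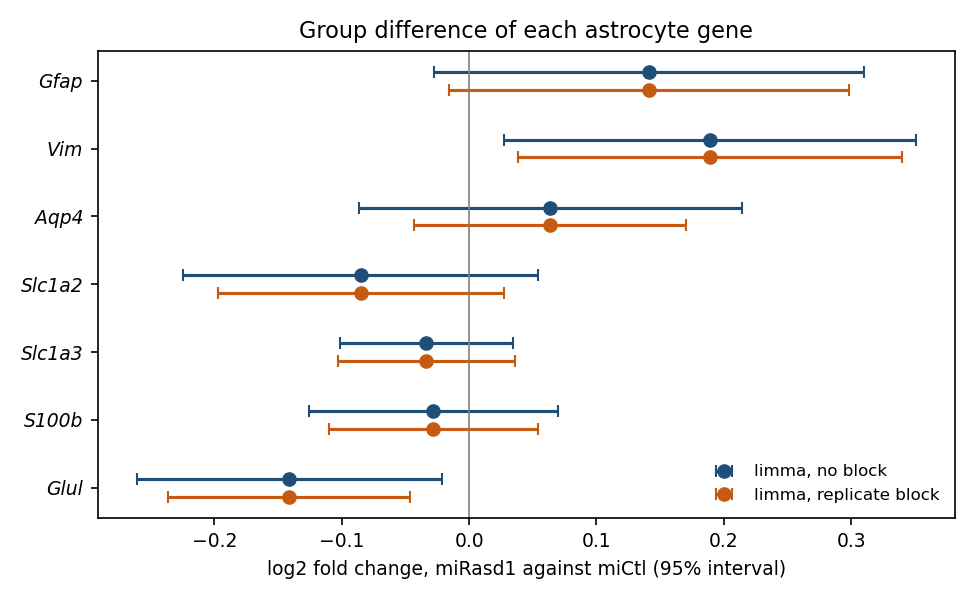
Log2 fold change of miRasd1 against miCtl for each astrocyte gene, with its 95% interval, in limma without (blue) and with (orange) the pair number as a block. Intervals of Vim (0.03 to 0.35) and Glul (−0.26 to −0.02) leave out 0 before adjustment over all genes, and the other 5 include it.

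In the authors' deposited table the log2 fold change is 0.18 for Vim (adjusted p = 0.359), 0.14 for Gfap (0.575) and −0.14 for Glul (0.304), and of the 172 genes with an adjusted p under 0.05 in the authors' deposited table (1.12% of 15296), 0 are members.

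By sign alone, Gfap and Vim lay on the other side of 0 from 4 of the other 5 members, with Aqp4 the exception. Of the 4, Slc1a3 and S100b had log2 fold changes near 0 (−0.03, SE 0.03, and −0.03, SE 0.05). Only the intervals of Vim and Glul left out 0 before adjustment over all genes, and that of Gfap included it. The mean log2 level of Gfap and Vim minus that of the other 5 was −0.03 ± 0.17 over the miCtl libraries and 0.18 ± 0.16 over the miRasd1 libraries (SD, n = 7 each). The groups overlapped, from −0.26 to 0.28 and from −0.09 to 0.33, and the miRasd1 library was higher in 5 of 7 pairs. In pairs 1 and 8 the difference was −0.10 and −0.13. The log2 ratio of Vim to Glul, the members at the 2 ends of the range, went from −1.90 ± 0.25 to −1.57 ± 0.19 (SD, n = 7 each) and was higher in miRasd1 in 6 of 7 pairs. The log2 ratio of Gfap to Vim went from 2.48 ± 0.14 to 2.43 ± 0.15 (SD, n = 7 each). Vim and Glul had the highest and lowest log2 fold change of the 7, so the direction of the shift in their ratio is fixed by that choice. All these contrasts use members chosen with earlier results known and carry no test.

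The pairs did not behave alike. In pair 1 all 7 members were lower in miRasd1, with Gfap the most, although 48.7% of tested genes were higher there. In pair 8, where 48.6% of tested genes were higher, 5 members were lower. Slc1a2 and Glul, which were lower in most other pairs, were higher there. In pair 11, where 49.8% of tested genes were higher, 5 members were higher. Pair 11 had the largest differences of Gfap (log2 0.41), Vim (0.57) and Aqp4 (0.28) in any pair. This pair contains the deepest library, miRasd1 11, and without that library the log2 fold changes were 0.11 for Gfap and 0.17 for Vim (limma adjusted p = 0.716 and 0.506). Without miCtl 1, whose Gfap and Vim values were the highest of its group, they were 0.19 and 0.24 (limma adjusted p = 0.287 and 0.157).

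**Figure D3:**
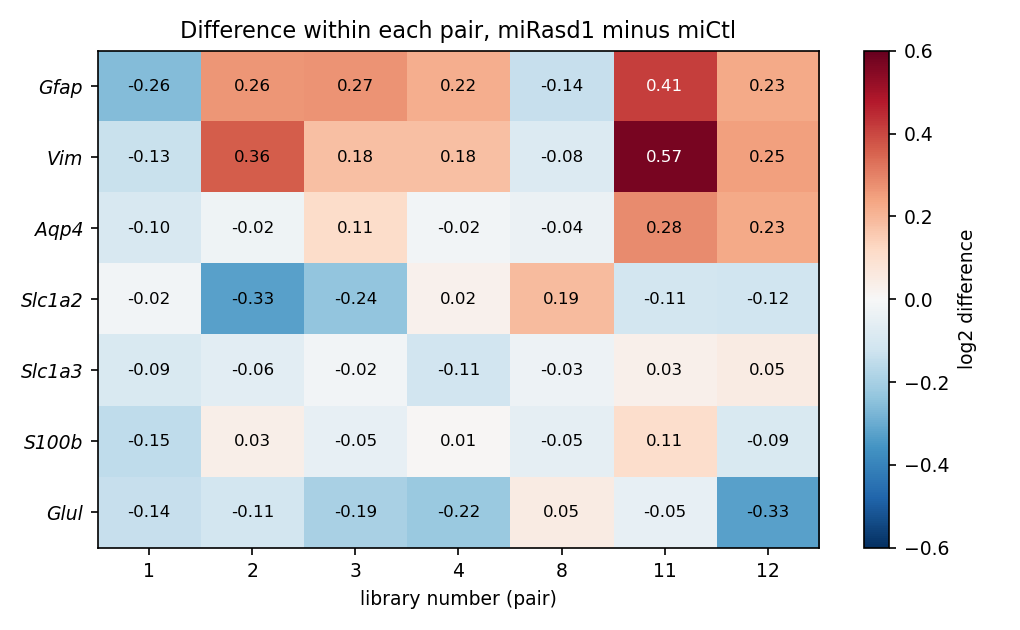
Log2 difference of miRasd1 minus miCtl within each pair of libraries (columns, by number) for each astrocyte gene (rows), red where miRasd1 was higher and blue where it was lower. Gfap and Vim share their sign in all 7 pairs, pair 1 is blue throughout, and Glul is blue in 6 of 7.

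Over the 7 pairs the differences of Gfap and Vim went together, with Pearson r = 0.93 (exact permutation p = 0.00179, 0.0375 adjusted over 21 gene pairs, n = 7). Spearman's rho was 0.89 (exact permutation p = 0.0123, adjusted 0.258, n = 7), so the rank test did not pass once adjusted. How common such an r is among pairs of other genes was not tested. Pairs 1 and 8, the 2 farthest from the median Gfap difference, lay apart from the other 5, and among those 5 alone r was 0.90. These 5 include pair 11, with the largest difference of both genes (0.41 for Gfap, 0.57 for Vim). How far r rested on pair 11 was not tested. Aqp4 with Slc1a3 (r = 0.88), Vim with S100b (r = 0.84) and Gfap with S100b (r = 0.77) had an unadjusted exact permutation p of 0.0133, 0.0210 and 0.0413 (n = 7). These 3 did not pass adjustment (adjusted p = 0.14, 0.147 and 0.217, rho = 0.71, 0.75 and 0.75). Without the 2 pairs farthest from the median of the first-named gene, r was 0.61, 0.42 and 0.78. The pairs left out were 11 and 12, 1 and 11, and 1 and 8. Over all 21 gene pairs r ran from −0.61 to 0.93 with a median of 0.29. For Gfap with Glul the value was r = −0.31 (exact permutation p = 0.505, n = 7), with a rho of 0.04 (exact permutation p = 0.963, n = 7). Pair 8 was the only one with Gfap lower and Glul higher. Without pairs 1 and 8 together, r for Gfap with Glul among the other 5 pairs was 0.80.

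**Figure D4:**
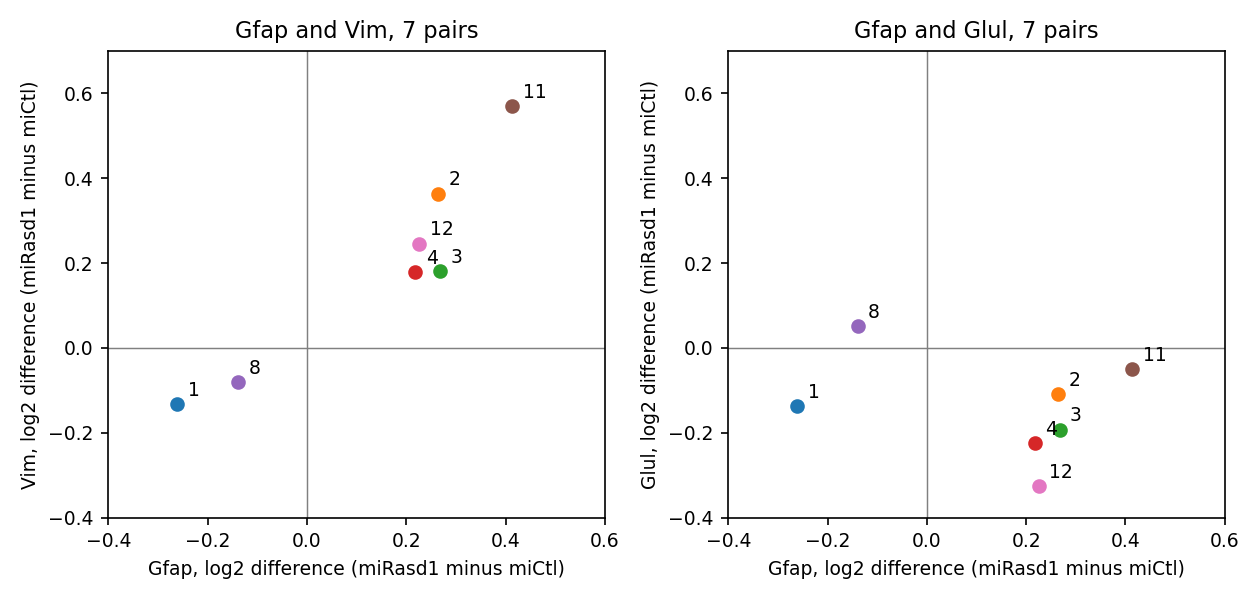
Log2 difference of miRasd1 minus miCtl in each of the 7 pairs (points, labelled by number), Gfap on the horizontal axis against Vim (left) and Glul (right). Vim follows Gfap (r = 0.93), with pairs 1 and 8 below 0 for both, and r for Glul is −0.31. Among the other 5 pairs r is 0.90 for Vim and 0.80 for Glul. These 5 include pair 11, the highest for both Gfap and Vim.

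When the libraries of a number were averaged instead, no gene pair passed adjustment by Pearson's r or Spearman's rho. By r, 0 of 21 had an unadjusted exact permutation p under 0.05. The highest r was 0.68, for Slc1a3 with S100b (exact permutation p = 0.0915, n = 7, rho = 0.39). Without numbers 4 and 12, the farthest from the Slc1a3 median, that r was −0.88. The lowest r was −0.69, for Vim with Slc1a2 (exact permutation p = 0.0788, n = 7), and −0.78 without numbers 1 and 12. By rho, Vim with Slc1a2 (−0.82) and Aqp4 with Slc1a2 (0.79) had an unadjusted exact permutation p of 0.0341 and 0.0480 (n = 7, adjusted p = 0.504 each). For Gfap with Vim r was 0.15. The pair numbers, which tie libraries together across the whole transcriptome, gave no correlation past the threshold in single members: the miCtl and miRasd1 libraries of one number correlated at −0.13 (Vim) to 0.53 (Aqp4), with exact permutation p from 0.232 to 0.803 (n = 7, 7 genes, adjusted p = 0.803 each). Spearman's rho ran from −0.39 to 0.61 (exact permutation p from 0.167 to 0.783, n = 7). For Aqp4, both libraries of number 2 were the lowest of their group. Without numbers 2 and 4, the 2 farthest from the miCtl median, its r was −0.94, and leaving out number 2 alone was not tested.

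Across all 14 libraries, after subtracting group means, Vim ranked 528th of 15177 genes by its correlation with Gfap (r = 0.59), and Gfap ranked 833rd by its correlation with Vim. The largest correlation in size between members was negative, −0.64 for Vim with Slc1a2. These values describe libraries that share a number in pairs. The tested genes whose pattern was most like the mean of the 7 standardised members were ENSRNOG00000011419 (r = 0.93) and ENSRNOG00000007234 (r = 0.90), neither of which passed the test between groups (limma adjusted p = 0.762 and 0.725). Of the members themselves, S100b (r = 0.75) and Aqp4 (r = 0.74) followed that mean most closely, although it contains them, and Glul (r = 0.17) least.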

How the data were processed

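The 14 libraries were poly(A) RNA-seq of punches of individual SONs, per the labels' protocols. Per the submitters' processing notes the authors used FastQC, STAR, featureCounts and DESeq2, without a version, build or strand setting in the sources used here. In the file the authors deposited, each entry is a signal value per gene and library (read count over a size factor), beside the deposited log2 fold change, SE, Wald score and p-values, raw and adjusted. Values were whole multiples of 1 step per library for 100% of non-zero values (tolerance 0.001), which recovered the reads. No pair of libraries looked like a copy (smallest chi-square per degree of freedom 4.99 over 91 pairs).

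The main test was limma 3.58.1 (trend) on log2(value + 1) of the 15178 genes with at least 10 in at least 7 libraries, Benjamini-Hochberg adjusted, with calls under 0.05. The added 1 understates changes of low genes, which the members are not. Alternatives were a replicate block, edgeR 4.0.16 and DESeq2 1.42.0 on recovered reads (18 and 172 genes called), other scalings, pseudocounts, no filter, and leaving out libraries or pairs. Libraries of one number deviated together (correlation across genes 0.20 to 0.40, against −0.23 to 0.14 between numbers, median −0.05), so the block result is given. The pairing comes from the titles and this correlation. Scripts were tested on simulated data. All 7 members are named by rule, with the genes most like their mean, of which 2 IDs are printed. Lists of other astrocyte, reactive and cell type genes were set by symbol and not tested, since 0 of 32623 IDs matched a symbol in the RefSeq table of 47357 genes (GRCr8). The members and lists were chosen with earlier results of these data known. Interval levels are 95%.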

Additional observations from a re-analysis of the deposited data

Results flagged for a closer look

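In 18 sets of 7 libraries (each member, the depth and the members' share of reads, in each group), 4 had a library far from the rest of its group, with a gap to the nearest library beyond Dixon's 95% limit for its share of the range, and chance gives about 1 in 20. Gfap in miCtl 1 was 65154 normalised reads, against 54770 for the next library. Glul in miCtl 12 was 40637, against 36259 for the next. Aqp4 in miCtl 2 was 32764, against 37690 for the next lowest. The depth of miRasd1 11 was 28345441 reads, against 23436467 for the next. Values without these libraries were a log2 fold change of 0.19 for Gfap, −0.11 for Glul and 0.02 for Aqp4, and none passed the threshold. Any part of depth in the values of miRasd1 11 was not tested.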

How the results depend on the processing

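The block on TMM or total-read scaling was added after seeing the data. The 7 members gave 0 calls in the main test and in every alternative but 1. The exception, limma with the replicate block without pair 8, called Glul, and pair 8 was the only pair with Glul higher. Leaving out a library or pair thus gave 0 to 1 member calls. All 7 log2 fold changes kept their direction in all 33 alternatives, over 0.10 to 0.21 for Gfap, 0.13 to 0.24 for Vim, 0.02 to 0.12 for Aqp4, −0.13 to −0.04 for Slc1a2, −0.05 to −0.02 for Slc1a3, −0.05 to −0.0021 for S100b and −0.17 to −0.11 for Glul. The replicate block changed no member's call. With all pairs in place, the block in limma cannot change a log2 fold change. All alternatives reused the same libraries, so the shared direction is no separate evidence.

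Over all genes the count moved from 22 to 150 with the replicate block in limma, 139 in edgeR with the block, 172 in DESeq2 and 314 in DESeq2 with the block. With the block it was 155 on TMM scaling and 150 on total reads. Leaving out a library or a pair gave 0 to 484. With the block and pair 1, 4 or 12 left out it was 0 (unadjusted p under 0.05 in 2063, 1843 and 1808 genes), and 38 without pair 3, 78 without pair 11, 161 without pair 2 and 484 without pair 8. Without the block it was 81 without miRasd1 8, 59 without miRasd1 11, 7 without miCtl 3, 2 without miCtl 12 or miRasd1 4, and 1 without miCtl 4, miCtl 11, miRasd1 1, miRasd1 3 or miRasd1 12. The cause was not tested. Among correlations, scaling by total reads gave an r of 0.93 for the differences of Gfap and Vim, again the only gene pair of 21 past the threshold. Counting error of the members was at most 1.72% of a value.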
